A study of Rattus norvegicus with 3 samples.

Results

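Cholinergic interneurons of the rat nucleus accumbens were taken here as 59 nuclei of the 10806 that passed quality filters in 3 single-nucleus RNA libraries. The rule for a member was at least 3 unique molecular identifiers (UMIs, counted RNA molecules) summed over Chat, Slc5a7, Slc18a3 and Ecel1, with at least 2 of the 4 genes detected, in a nucleus that had 500 or more genes and whose mitochondrial share of UMIs did not exceed 5%. Chat and Slc18a3 are not analysed here, so in practice a member had both Slc5a7, the high-affinity choline transporter that reloads the terminal with choline, and Ecel1, a neuronal metallopeptidase of the endothelin-converting enzyme family. Of the 59 members, 26 came from the urolithin A library, 18 from the high anxiety library and 15 from the low anxiety library.

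The study sorted outbred Wistar rats by their anxiety in the elevated plus maze and open field tests, and gave some of the high anxiety rats urolithin A, a gut microbial metabolite of dietary ellagitannins. The groups were high anxiety rats given urolithin A for 2 months, high anxiety rats without treatment, and low anxiety rats without treatment, with 16 weeks as the age given for the tissue of all groups. Each group was 1 droplet library made from nucleus accumbens punches of 5 hemispheres pooled before nuclei were isolated, and the labels do not say how many rats gave these hemispheres. With 1 library per group, no difference between groups has a replicate check, and intervals given between groups cover counting error only.

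Cholinergic interneurons are a sparse class of large striatal neurons that fire without synaptic drive and supply most of the acetylcholine of the striatum. They arise in the ventral forebrain from progenitors that express Nkx2-1, and the LIM homeobox factors Lhx8 and Isl1 direct them to the cholinergic fate rather than to the GABAergic interneuron fate. In the accumbens they are known for their pauses in firing at salient events and for acting on dopamine release, and many of them also load glutamate into vesicles.

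The libraries held 19162530 UMIs (urolithin A), 22095390 UMIs (high anxiety) and 16728049 UMIs (low anxiety). The median member held 9988.5 UMIs in the urolithin A library, 13342 in the high anxiety library and 9828 in the low anxiety library, and single members ranged from 741 to 47569 UMIs. Summed over members, the counts came to 258689, 242501 and 160195 UMIs in the urolithin A, high anxiety and low anxiety libraries, and all levels below are CPM, which scales each such sum to the same total. No member had a high doublet score, against 312 of all kept nuclei. In all, 16 barcodes occurred in 2 libraries and none of them belonged to a member.

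The label was checked against its remaining marker and against unsupervised clusters. Of the 59 members, 58 lay in 1 cluster of 59 nuclei whose leading genes included Slc5a7, Ecel1, Slc10a4, Slc17a8, Insrr, Zar1, Pgm5, Gjb5 and Rxfp2, and the remaining nucleus of that cluster had 3 UMIs of Slc5a7 and 4 of Lhx8 but none of Ecel1. Lhx8, which the rule did not use, was detected in 49 of 59 members (83.1%), against 10 of 2049 oligodendrocyte-like nuclei (0.488%), which gauge free RNA in droplets. The median depth was 10532 UMIs in members and 2022 UMIs in the oligodendrocyte-like nuclei, and the same 2 depths apply to every such pair of shares below.

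By the same gauge, Isl1 was detected in 81.4% of members and 0.732% of oligodendrocyte-like nuclei, and Slc17a8 in 91.5% and 0.244%. Markers of other cells were counted as well. The 8 glutamatergic neuron markers summed to 0, 8.25 and 6.24 CPM in the urolithin A, high anxiety and low anxiety libraries, and the 4 endothelial markers had no UMI. In the same libraries the 10 oligodendrocyte markers summed to 178, 652 and 287 CPM and the astrocyte markers to 263, 177 and 137 CPM. No member had a rule sum of 3 and 2 had a sum of 4, while 1 nucleus with both genes lay just outside with a sum of 2. A further 10 nuclei had at least 3 UMIs of Slc5a7 without Ecel1, 5 of them with Lhx8, and 9 had at least 3 UMIs of Ecel1 without Slc5a7, none with Lhx8.

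A pair of members stood apart from the rest. The high anxiety member with 47569 UMIs held 19.6% of all member UMIs of its library and carried 75 of the 80 UMIs of Nxph1 and 65 of the 70 UMIs of Kirrel3 there, beside 42 UMIs of Slc5a7, 11 of Lhx8 and 27 of Slc17a8. Nxph1 was high in GABAergic interneuron-like nuclei, whereas Kirrel3 was higher in medium spiny neuron-like nuclei, at 1790 CPM in that library, than in GABAergic interneuron-like nuclei, at 1297 CPM. The low anxiety member outside the cholinergic cluster had 508 UMIs of Npy and 179 of Sst, neuropeptides of a GABAergic interneuron class, with 2 UMIs each of Slc5a7 and Ecel1 and none of Lhx8 or Slc17a8. Summed over 17 GABAergic interneuron markers, members had 278 CPM in the urolithin A library, 647 CPM in the high anxiety library and 5237 CPM in the low anxiety library. Neither nucleus had a high doublet score, and whether either droplet held RNA of more than 1 nucleus was not tested further. Results were recomputed without these 2 nuclei, and the value without them is given where it alters a result.

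Members made up 0.739% of kept nuclei in the urolithin A library (26 of 3520, exact 95% binomial interval 0.483 to 1.08%), 0.472% in the high anxiety library (18 of 3810, 0.280 to 0.746%) and 0.432% in the low anxiety library (15 of 3476, 0.242 to 0.711%). All 3 intervals overlapped. Set against members plus GABAergic interneuron-like nuclei alone, the shares were 6.55%, 8.78% and 8.38% in the urolithin A, high anxiety and low anxiety libraries, so the order of the libraries depended on the denominator.

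Member sums per library were set against those of 722 GABAergic interneuron-like nuclei and of 4777 medium spiny neuron-like nuclei, to describe what members express. The GABAergic class was chosen as nearest by position and origin, and no nearness was measured. Medium spiny neurons are the principal neurons of the tissue. The test was edgeR's quasi-likelihood test with library as a block and Benjamini-Hochberg adjustment over all genes tested, written below as edgeR adjusted p, with genes called at 0.05. Against GABAergic interneuron-like nuclei, 665 of 9618 genes were higher (6.91%) and 927 were lower (9.64%), or 16.6% in either direction, and the median log2 fold change over all of them was -0.01. Against medium spiny neuron-like nuclei, 1750 of 9494 genes were higher (18.4%) and 1795 lower (18.9%), or 37.3% in either direction, with a median of -0.002. Both comparison classes were named from clusters of the same counts, and the largest GABAergic interneuron-like cluster, with 438 of the 722 nuclei, was led by Crh, Spp1 and Vip. The marker genes that named a class were part of its choice, and the p-values measure the spread between 3 libraries, so they are read as a ranking of class differences. DESeq2 called 338 higher and 446 lower than in GABAergic interneuron-like nuclei, and edgeR called 417 and 535 without the high anxiety library. A narrower set of GABAergic interneuron clusters, those with at least 2 of the markers among their leading genes, was used as an alternative class. This set leaves out the cluster of 438 nuclei. Against it, 725 of 8495 genes were higher and 809 lower.

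Genes that supply and break down acetylcholine were high in the members. Slc5a7, by which the nuclei were chosen, had 1214, 1254 and 1049 CPM in members of the urolithin A, high anxiety and low anxiety libraries, against 13.8, 20.6 and 20.9 CPM in GABAergic interneuron-like nuclei and 0.840, 0.600 and 0.795 CPM in medium spiny neuron-like nuclei of these libraries. Ecel1, the other gene of the rule, had 951, 899 and 961 CPM in members, against 7.57, 16.4 and 20.0 CPM in GABAergic interneuron-like nuclei. These levels describe the choice and carry no test. Of the 8 other genes of this list that were tested, 5 were higher than in GABAergic interneuron-like nuclei and none lower, with a median log2 fold change of 1.48. Against the narrower set of GABAergic interneuron clusters, 4 of 8 were higher and none lower, with a median of 1.13. Against medium spiny neuron-like nuclei, 6 were higher. The shares of all genes higher were 6.91% (GABAergic interneuron-like), 725 of 8495 (narrower set) and 18.4% (medium spiny neuron-like).

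Prima1, the transmembrane anchor that holds acetylcholinesterase at the cell surface, had 611, 577 and 449 CPM in members of the urolithin A, high anxiety and low anxiety libraries, against 3.44, 0 and 1.82 CPM in GABAergic interneuron-like nuclei (log2 fold change 8.02 ± 0.29 SE, edgeR adjusted p = 5.1e-17). Acly, the ATP citrate lyase that makes cytosolic acetyl-CoA, had 684, 796 and 818 CPM in members, against 36.8, 29.7 and 47.3 CPM in GABAergic interneuron-like nuclei (log2 fold change 4.33 ± 0.18 SE, edgeR adjusted p = 4.79e-18). Ache, the acetylcholinesterase itself, had 634, 652 and 886 CPM in members, against 137, 114 and 212 CPM in GABAergic interneuron-like nuclei (log2 fold change 2.24 ± 0.17 SE, edgeR adjusted p = 3.38e-12). The ranges of members and GABAergic interneuron-like nuclei did not overlap for any of these genes.

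Ache was also 4.83 log2 units above medium spiny neuron-like nuclei, where it had 23.3, 18.6 and 25.2 CPM (edgeR adjusted p = 1.6e-17), so it was higher than in both neuron classes. Bche, the related butyrylcholinesterase, rose by 2.37 log2 units over GABAergic interneuron-like nuclei (edgeR adjusted p = 1.32e-05). Of the other choline genes, the choline transporter-like gene Slc44a5 was 0.72 log2 units higher (edgeR adjusted p = 0.0106), a call that DESeq2 did not make (adjusted p = 0.211). Slc44a1 and the choline kinase Chka had log2 fold changes of -0.11 and 0.04 and were not called. Prima1 was detected in 89.8% of members and in 25.1% of oligodendrocyte-like nuclei, whereas Ache was detected in all 59 members and in 0.732% of oligodendrocyte-like nuclei. GABAergic interneuron-like nuclei had 3.44, 0 and 1.82 CPM of Prima1. Whether its share in oligodendrocyte-like nuclei is free RNA or their own RNA was not tested.

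**Figure D1:**
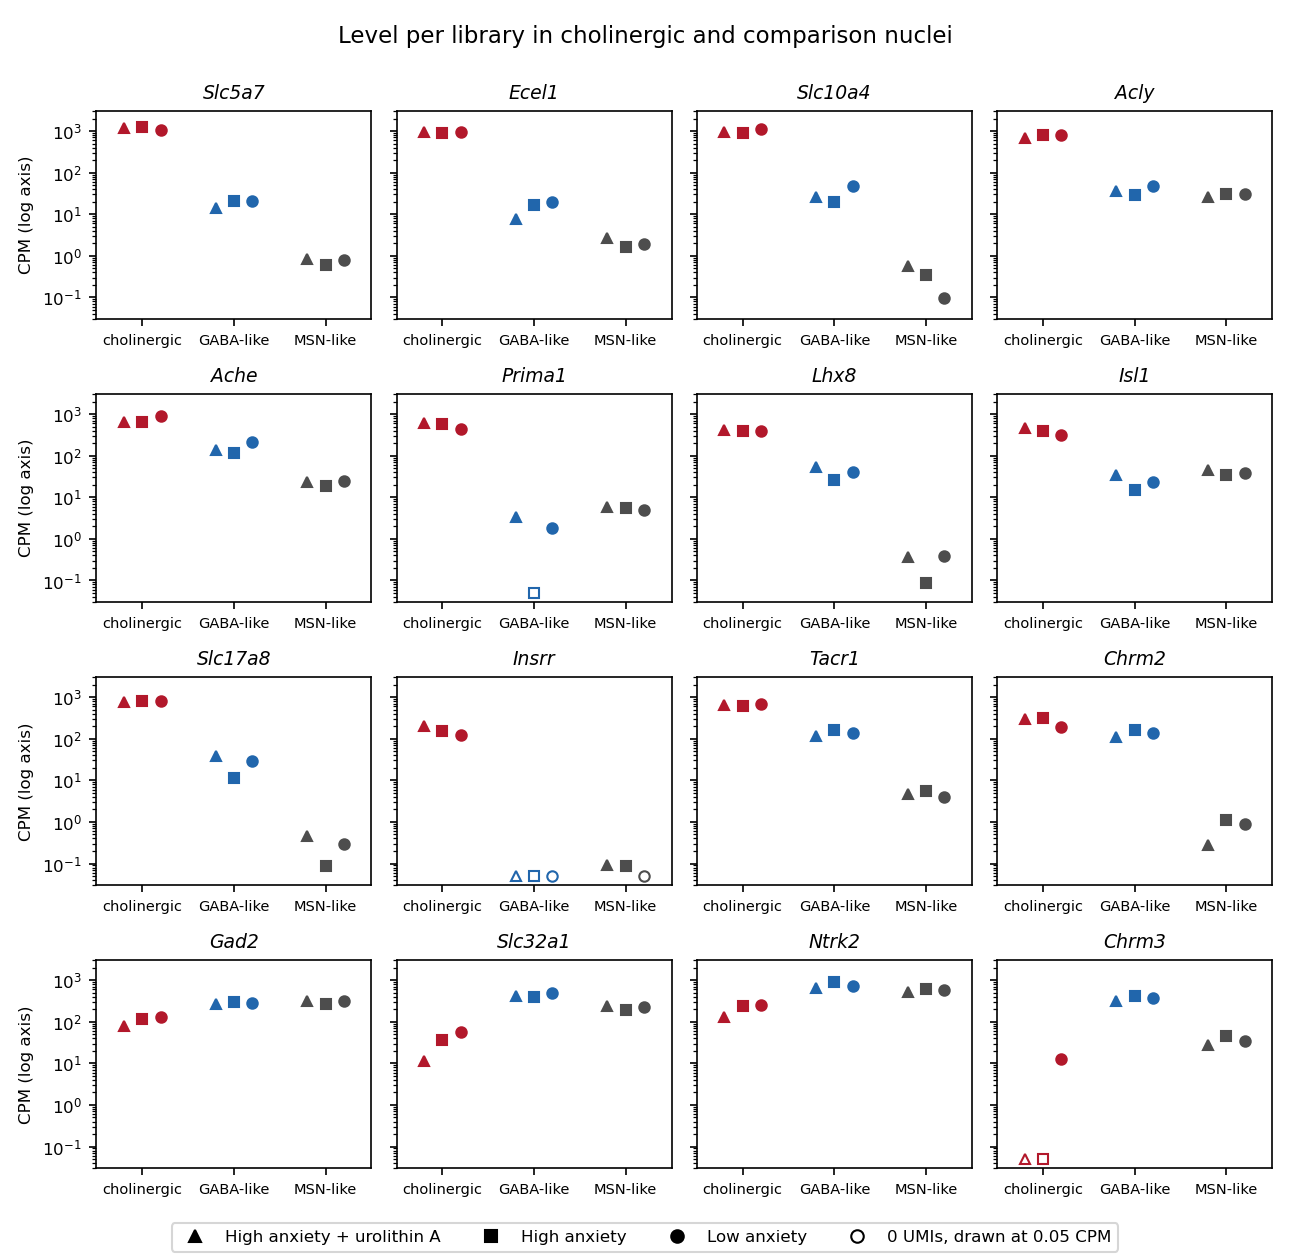
Levels of identity genes, in CPM on a log axis, in the summed counts of each class in each library, with 1 point per library and class and open points at 0 UMIs. Lhx8 lies at 414, 388 and 399.5 CPM in cholinergic nuclei of the urolithin A, high anxiety and low anxiety libraries, above all points of GABAergic interneuron-like nuclei at 54.0, 25.5 and 40.9 CPM.

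Of the ventral forebrain transcription factors described here, Lhx8 was detected in 49 and Isl1 in 48 of 59 members. Lhx8 had 414, 388 and 399.5 CPM in members of the urolithin A, high anxiety and low anxiety libraries, against 54.0, 25.5 and 40.9 CPM in GABAergic interneuron-like nuclei (log2 fold change 3.31 ± 0.19 SE, edgeR adjusted p = 4.66e-15). In medium spiny neuron-like nuclei it had 0.374, 0.0857 and 0.397 CPM (log2 fold change 10.20 ± 0.27 SE, edgeR adjusted p = 4.12e-20). Isl1 had 464, 392 and 306 CPM in members, against 34.7, 14.6 and 22.7 CPM in GABAergic interneuron-like nuclei (log2 fold change 4.01 ± 0.20 SE, edgeR adjusted p = 2.45e-16). For both genes every library of members lay above every library of either comparison class.

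Isl1 is also a gene of D1 medium spiny neurons, and medium spiny neuron-like nuclei had 45.4, 34.6 and 37.7 CPM of it (log2 fold change 3.13 ± 0.16 SE, edgeR adjusted p = 3.46e-14). The zinc finger factors Zic1 and Zic4, which mark septal progenitors in mouse, rose by 2.19 and 1.75 log2 units over GABAergic interneuron-like nuclei (edgeR adjusted p = 0.00043 and 0.00385). Their counts were low, with 25 UMIs of Zic1 in 16 of 59 members and 24 UMIs of Zic4 in 17.

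Nkx2-1, which specifies the medial ganglionic eminence, was 7.68 log2 units above medium spiny neuron-like nuclei (edgeR adjusted p = 1.19e-09) but only 0.68 above GABAergic interneuron-like nuclei, which did not pass (edgeR adjusted p = 0.209). Lhx6, which keeps interneurons GABAergic, had a log2 fold change of -0.07 against GABAergic interneuron-like nuclei (edgeR adjusted p = 0.946). Nkx2-1 had 27 UMIs in 19 of 59 members, and Lhx6 had 15 UMIs in 11. Lmo3, a LIM-only cofactor, fell to 11.6, 12.4 and 6.24 CPM, against 112, 107 and 98.3 CPM in GABAergic interneuron-like nuclei (edgeR adjusted p = 2.23e-08). In all, 5 of 14 tested factors were higher and 2 lower than in GABAergic interneuron-like nuclei, with a median of 0.41, beside 6.91% and 9.64% of all genes. Against the narrower set of GABAergic interneuron clusters, 3 of 11 were higher and 2 lower, beside 725 and 809 of all 8495 genes. Without the 2 outlying nuclei 4 were lower, the added ones being Sox6 and Dlx1, whose UMIs lay mostly in 1 nucleus each.

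Promoters of Slc5a7, Lhx8 and Slc10a4, a carrier of cholinergic vesicles described below, are shown because LIM homeodomain factors bind TAAT cores and these genes were high in the same nuclei. They are the 250 bases before a start site in RefSeq on build GRCr8, which is not the build the counts were made on, written 5′ to 3′ on the gene's strand. Capitals mark TAAT on either strand, written TAAT or ATTA. Lhx8 has 2 starts in the table and the one with 2 matches is shown.
Slc5a7 (chr9:7953510-7953759, minus strand): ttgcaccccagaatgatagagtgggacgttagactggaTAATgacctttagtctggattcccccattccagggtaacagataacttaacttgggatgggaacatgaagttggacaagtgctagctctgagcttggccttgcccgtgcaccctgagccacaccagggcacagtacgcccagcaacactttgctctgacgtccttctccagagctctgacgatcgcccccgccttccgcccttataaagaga
Lhx8 (chr2:245927479-245927728, minus strand): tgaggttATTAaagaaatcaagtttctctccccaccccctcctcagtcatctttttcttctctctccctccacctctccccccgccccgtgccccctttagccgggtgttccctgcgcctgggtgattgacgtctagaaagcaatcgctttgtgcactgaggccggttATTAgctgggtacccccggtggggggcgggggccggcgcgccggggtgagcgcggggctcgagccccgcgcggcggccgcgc
Slc10a4 (chr14:35557885-35558134, minus strand): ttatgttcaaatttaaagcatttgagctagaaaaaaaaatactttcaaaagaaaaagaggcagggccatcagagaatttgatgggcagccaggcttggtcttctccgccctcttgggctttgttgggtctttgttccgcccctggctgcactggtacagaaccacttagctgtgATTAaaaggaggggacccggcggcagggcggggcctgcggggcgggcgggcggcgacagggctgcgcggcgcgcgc

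The share of all promoters of the same length with at least 1 TAAT on either strand was 57.0% of 33469. Of the 15 genes that led the members over the other classes, Slc5a7 included, 11 had a promoter in the table and 5 of these held the letters, namely Lhx8, Rxfp2, Slc10a4, Slc5a7 and Zar1. A match is a description of the letters and no measurement of binding.

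Several of the genes highest over GABAergic interneuron-like nuclei have no part in acetylcholine chemistry. Insrr, which encodes the insulin receptor-related receptor that senses alkaline pH, had 205, 157 and 125 CPM in members and no UMI in GABAergic interneuron-like nuclei, and was at least 316-fold higher (floor of 3 UMIs over the class).

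Slc10a4, an orphan carrier of cholinergic and monoaminergic vesicles, had 955, 907 and 1105 CPM in members of the urolithin A, high anxiety and low anxiety libraries, against 26.5, 19.4 and 48.2 CPM in GABAergic interneuron-like nuclei (log2 fold change 5.04 ± 0.21 SE, edgeR adjusted p = 2.25e-18). It was detected in 96.6% of members and 0.293% of oligodendrocyte-like nuclei. Zar1, a maternal factor of the egg, had 88.9, 148 and 149.8 CPM in members (log2 fold change 6.44 ± 0.45 SE, edgeR adjusted p = 6.89e-13). Zar1 lies next to Slc10a4, downstream on the same strand, with 83 UMIs in members against 644 for Slc10a4, so its counts cannot be told apart from reads that ran on past Slc10a4.

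Rxfp2, the receptor for insulin-like peptide 3, had 209, 202 and 156 CPM in members (log2 fold change 5.66 ± 0.31 SE, edgeR adjusted p = 2.11e-15). Pgm5, a phosphoglucomutase-related protein of cell adhesions, had 174, 181 and 187 CPM, and Cd44, the hyaluronan receptor, had 170.1, 115 and 144 CPM, with log2 fold changes of 7.05 and 6.98 over GABAergic interneuron-like nuclei (edgeR adjusted p = 9.88e-16 and 1.17e-14). Mcub, the inhibitory subunit of the mitochondrial calcium uniporter, had 92.8, 94.8 and 93.6 CPM (log2 fold change 5.23 ± 0.44 SE, edgeR adjusted p = 4.99e-11). For each of these 4 genes the lowest library of members lay above the highest of the comparison class. Gjb5, a connexin, had 85.0, 119.6 and 87.4 CPM in members, against 1 UMI in all GABAergic interneuron-like nuclei, a ratio of 556 (95% interval 96.3 to 22280.0). Megf10, an engulfment receptor, had 255, 259.8 and 119 CPM (log2 fold change 4.55 ± 0.41 SE, edgeR adjusted p = 3.5e-05), with its lowest level in the low anxiety library.

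At the other end, several genes of GABAergic interneuron subclasses had no UMI in the members. Trh, Vip, Moxd1, Satb1 and Ildr2 were absent from the counts and were at least 43.1-fold, 18.7-fold, 15.6-fold, 13.3-fold and 13.9-fold lower than in GABAergic interneuron-like nuclei (floor of 3 UMIs over all members). The bound for Vip rests on the high anxiety and low anxiety libraries, since GABAergic interneuron-like nuclei had 0.688, 80.7 and 313 CPM of it in the urolithin A, high anxiety and low anxiety libraries, and DESeq2 did not call it (adjusted p = 0.421). Trh and Vip encode neuropeptides, Moxd1 a monooxygenase-like protein, Satb1 a chromatin organiser needed by somatostatin interneurons in mouse, and Ildr2 an immunoglobulin-like receptor. Vip and Elfn1 belong to the marker list from which the GABAergic interneuron-like clusters were named, so that a lower level of that list in members follows from the naming. Elfn1, a postsynaptic adhesion protein, was nevertheless higher, at 197, 177 and 194 CPM in members, against 18.6, 38.9 and 40.9 CPM (log2 fold change 2.61 ± 0.24 SE, edgeR adjusted p = 9.4e-10).

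The 10 shared markers of medium spiny neurons helped to name the medium spiny neuron-like clusters, so their level is compared here with other nuclei. Their summed level in members was 1117 CPM in the urolithin A library, 1839 CPM in the high anxiety library and 2466 CPM in the low anxiety library, and oligodendrocyte-like nuclei had 1471, 1533 and 1600.3 CPM of the same markers in the urolithin A, high anxiety and low anxiety libraries. Among the genes lowest against medium spiny neuron-like nuclei, Ildr2, Ankrd33b and Spata13 had no UMI in members and were at least 19.8-fold, 17.5-fold and 13.3-fold lower.

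Of the genes that load other transmitters, the vesicular glutamate transporter VGLUT3 stood alone on the high side. Slc17a8, its gene, had 754, 792 and 818 CPM in members of the urolithin A, high anxiety and low anxiety libraries, against 38.2, 11.5 and 29.1 CPM in GABAergic interneuron-like nuclei (log2 fold change 4.90 ± 0.26 SE, edgeR adjusted p = 5.31e-09). The level in medium spiny neuron-like nuclei was 0.467, 0.0857 and 0.298 CPM (log2 fold change 11.17 ± 0.28 SE, edgeR adjusted p = 2.12e-20). Slc17a6, for VGLUT2, had no UMI in members. The 4 GABA genes of the list were lower than in GABAergic interneuron-like nuclei.

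Slc32a1, which encodes the vesicular GABA transporter, fell to 11.6, 37.1 and 56.2 CPM in members of the urolithin A, high anxiety and low anxiety libraries, against 413, 394 and 480.4 CPM in GABAergic interneuron-like nuclei (log2 fold change -3.74 ± 0.27 SE, edgeR adjusted p = 1.26e-12). Without the 2 outlying nuclei its log2 fold change was -6.00, since 4 UMIs remained. The GABA-synthesising enzymes were lower to a lesser degree, with Gad2 at 77.3, 115 and 131 CPM in members, against 264, 299 and 277 CPM (log2 fold change -1.43, edgeR adjusted p = 1.07e-06), and Gad1 at 42.5, 186 and 162 CPM, against 418, 682 and 519.5 CPM (log2 fold change -2.18, edgeR adjusted p = 2.03e-08). Gad2 was detected in 31 of 59 members (52.5%) and in 1.71% of oligodendrocyte-like nuclei, and Slc32a1 in 5 members (8.47%) and 2.10% of oligodendrocyte-like nuclei. Slc17a8 and Gad2 were detected together in 29 members.

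Among receptors for acetylcholine itself, only Chrm2 was higher in members than in either class. Chrm2, the Gi-coupled muscarinic receptor that acts as an autoreceptor on these cells, had 298, 313 and 194 CPM in members of the urolithin A, high anxiety and low anxiety libraries, against 109, 162 and 134 CPM in GABAergic interneuron-like nuclei (log2 fold change 1.01 ± 0.18 SE, edgeR adjusted p = 6.75e-05). In medium spiny neuron-like nuclei it had 0.280, 1.11 and 0.894 CPM (log2 fold change 8.25 ± 0.30 SE, edgeR adjusted p = 3.68e-17). Against the narrower set of GABAergic interneuron clusters, Chrm2 was 0.30 log2 units higher and not called (edgeR adjusted p = 0.307). Of the 31 UMIs of Chrm2 in low anxiety members, 14 lay in the outlying nucleus. Without that nucleus the low anxiety level of Chrm2 was below that of GABAergic interneuron-like nuclei of the same library. Chrm3, a Gq-coupled muscarinic receptor, had 2 UMIs in members, against 2018 in GABAergic interneuron-like nuclei, a ratio of their level to that of members of 118 (95% interval 32.6 to 975). Chrm4, the Gi-coupled receptor of D1 neurons, had 33 UMIs, at 34.8, 53.6 and 68.7 CPM in members, against 70.7, 76.6 and 79.7 CPM in medium spiny neuron-like nuclei, which it helped to name. The edgeR call there (adjusted p = 0.0203) was lost with DESeq2 (adjusted p = 0.108). In all, 1 of 5 tested muscarinic and nicotinic receptors was higher and 2 were lower than in GABAergic interneuron-like nuclei, beside 6.91% and 9.64% of all genes.

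Of 21 tested receptors for other modulators, 6 were higher and 8 lower than in GABAergic interneuron-like nuclei, beside 6.91% and 9.64% of all genes. Of 23 tested against medium spiny neuron-like nuclei, 6 were higher and 15 lower, beside 18.4% and 18.9% of all genes. Drd1, Drd2, Adora2a and Grm8, among the 15, are on the lists that named the medium spiny neuron-like clusters. Tacr1, the substance P receptor, had 638, 623 and 674 CPM in members of the urolithin A, high anxiety and low anxiety libraries, against 114, 158 and 136 CPM in GABAergic interneuron-like nuclei (log2 fold change 2.24 ± 0.17 SE, edgeR adjusted p = 3.41e-12). Its level in medium spiny neuron-like nuclei was 4.58, 5.66 and 3.87 CPM (log2 fold change 6.91 ± 0.19 SE, edgeR adjusted p = 5.47e-20). Tacr1 was also among the 10 leading genes of a GABAergic interneuron-like cluster of 97 nuclei, led by Npy, Sst, Chodl and Nos1. Members were not compared with that cluster alone. Oprd1, the delta opioid receptor, had 186, 169 and 169 CPM in members, against 15.1, 33.4 and 21.8 CPM in GABAergic interneuron-like nuclei (log2 fold change 2.94 ± 0.25 SE, edgeR adjusted p = 5.99e-11). Oprm1, the mu opioid receptor, had 216, 206 and 156 CPM in members, against 71.9, 90.5 and 75.5 CPM in GABAergic interneuron-like nuclei (log2 fold change 1.29 ± 0.19 SE, edgeR adjusted p = 3.34e-06). In these 3 receptor genes the libraries of members all lay above those of GABAergic interneuron-like nuclei, while Oprk1, for the kappa opioid receptor, had no UMI in members.

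Crhr1, the receptor for corticotropin-releasing hormone, a stress peptide, had 81.2, 144 and 81.2 CPM in members of the urolithin A, high anxiety and low anxiety libraries, against 13.4, 14.0 and 16.4 CPM in GABAergic interneuron-like nuclei (log2 fold change 2.80 ± 0.30 SE, edgeR adjusted p = 6.82e-09), and rose also over medium spiny neuron-like nuclei (log2 fold change 3.03, edgeR adjusted p = 4.71e-09). Drd2, the Gi-coupled dopamine receptor, had 81.2, 78.3 and 181 CPM in members, against 17.2, 6.07 and 33.7 CPM in GABAergic interneuron-like nuclei (log2 fold change 2.59 ± 0.29 SE, edgeR adjusted p = 2.58e-08). Its level in medium spiny neuron-like nuclei was 191, 218 and 208 CPM, a class that was named in part by this gene. Drd2 lay between the classes, and it was detected in 42.4% of members and 0.586% of oligodendrocyte-like nuclei. Grm2, a presynaptic Gi-coupled glutamate receptor, rose by 2.54 log2 units over GABAergic interneuron-like nuclei (edgeR adjusted p = 3.95e-05). Htr7, a Gs-coupled serotonin receptor, rose by 3.38 over medium spiny neuron-like nuclei (edgeR adjusted p = 9.31e-10), with 0.07 and no call against GABAergic interneuron-like nuclei.

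Lower receptors included Drd1, at 7.73, 16.5 and 6.24 CPM in members of the urolithin A, high anxiety and low anxiety libraries, against 133, 145 and 158 CPM in medium spiny neuron-like nuclei, and Adora2a, the adenosine receptor of D2 neurons, at 3.87, 4.12 and 25.0 CPM, against 162, 169 and 151 CPM. Both genes are on the lists that named the medium spiny neuron-like clusters, so these levels are a description. Grm5, a Gq-coupled glutamate receptor, had 108, 293 and 499 CPM in members, against 1109, 1502 and 1409 CPM in GABAergic interneuron-like nuclei (log2 fold change -2.35 ± 0.27 SE, edgeR adjusted p = 1.94e-05), and without the 2 outlying nuclei the log2 fold change was -2.96 with an adjusted p of 0.228. In the high anxiety library its level was 30.8 CPM without the outlying nucleus. Cnr1, the cannabinoid receptor, fell to 11.6, 45.4 and 0 CPM, against 110.1, 204 and 157 CPM in GABAergic interneuron-like nuclei (edgeR adjusted p = 5.76e-07), and 71.4% of its UMIs lay in 1 member.

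Ion channels of pacemaking and afterhyperpolarisation were mostly lower in members. Of 41 tested, 4 were higher and 23 lower than in GABAergic interneuron-like nuclei, with a median log2 fold change of -0.71. The shares over all genes were 6.91% and 9.64%. Of 40 tested against medium spiny neuron-like nuclei, 8 were higher and 23 lower, with a median of -0.82. The shares over all genes there were 18.4% and 18.9%, and the 8 higher lay near the former. Against the narrower set of GABAergic interneuron clusters, 7 of 40 were higher and 17 lower, beside 725 and 809 of all 8495 genes. Kcnt2, a sodium-activated potassium channel, had 1086, 907 and 974 CPM in members of the urolithin A, high anxiety and low anxiety libraries, against 56.8, 80.7 and 106 CPM in GABAergic interneuron-like nuclei (log2 fold change 3.65 ± 0.20 SE, edgeR adjusted p = 3.35e-15). In every library it was higher in members than in either class, and it lay 3.75 log2 units above medium spiny neuron-like nuclei.

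Cacna1b, the N-type calcium channel that feeds the afterhyperpolarisation of these cells, had 503, 478 and 393 CPM in members, against 234, 220.4 and 240.2 CPM in GABAergic interneuron-like nuclei (log2 fold change 0.98 ± 0.16 SE, edgeR adjusted p = 2.89e-05). Cacna1c, an L-type calcium channel, was 0.48 log2 units higher (edgeR adjusted p = 0.0463), a call lost without the 2 outlying nuclei (adjusted p = 0.0902). Kcnc2, a fast potassium channel of the Kv3 family, had 468, 305 and 468 CPM in members and lay 3.95 log2 units above medium spiny neuron-like nuclei (edgeR adjusted p = 2.42e-15) but 0.81 below GABAergic interneuron-like nuclei (edgeR adjusted p = 0.0457).

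Hyperpolarisation-activated channels carry the sag current seen in recordings of these neurons. Hcn2 had 81.2, 94.8 and 87.4 CPM in members of the urolithin A, high anxiety and low anxiety libraries, with log2 fold changes of 0.27 against GABAergic interneuron-like nuclei, which was not called, and 0.83 against medium spiny neuron-like nuclei (edgeR adjusted p = 0.00668). Hcn3 rose by 2.21 log2 units over medium spiny neuron-like nuclei (edgeR adjusted p = 0.000123), and Hcn4 had 7 UMIs in all members. Among the lower channels, Cacna1g, a T-type calcium channel, had a log2 fold change of -3.49, Kcna1, of the Kv1 family, -3.20, Kcnj6, a G-protein-gated channel, -2.74, and Kcnma1, the large-conductance calcium-activated channel, -0.90 against GABAergic interneuron-like nuclei (edgeR adjusted p = 4.6e-10, 2.01e-06, 3.1e-07 and 0.0002).

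Small-conductance calcium-activated channels, which set the slow firing of these cells, were lower or not called. Kcnn2 was 1.18 log2 units lower than in GABAergic interneuron-like nuclei (edgeR adjusted p = 0.00013) and 0.57 lower than in medium spiny neuron-like nuclei (edgeR adjusted p = 0.0489). Kcnn3 was 1.27 lower than in medium spiny neuron-like nuclei (edgeR adjusted p = 0.000186) and had a log2 fold change of 0.73 against GABAergic interneuron-like nuclei, which did not pass (edgeR adjusted p = 0.101). Kcnd2, of the A-type current, had 1109, 1897 and 1248 CPM in members, against 2825, 3203 and 3011 CPM in medium spiny neuron-like nuclei (log2 fold change -1.30 ± 0.19 SE, edgeR adjusted p = 3.83e-06), and was not called against GABAergic interneuron-like nuclei.

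**Figure D2:**
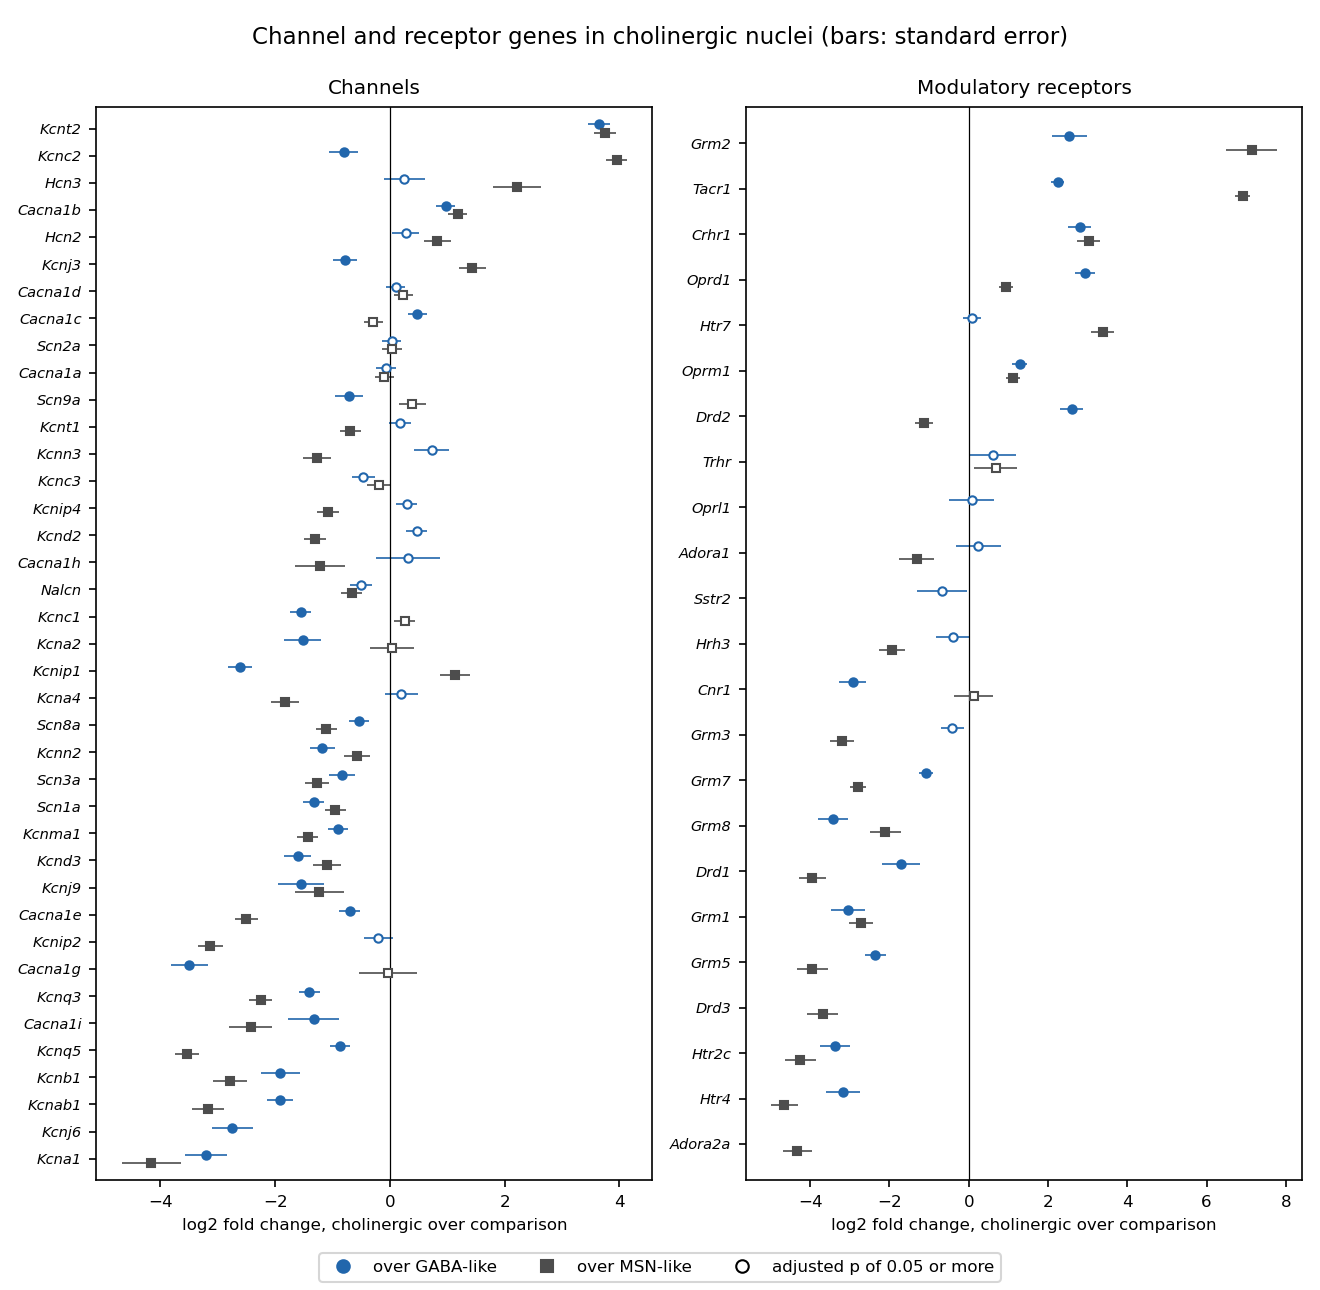
Log2 fold changes of ion channel and modulatory receptor genes in cholinergic nuclei, against GABAergic interneuron-like nuclei and against medium spiny neuron-like nuclei. Bars are standard errors derived from the F statistic. Points are filled for genes called and open for genes not called by edgeR's quasi-likelihood test. Kcnt2 lies at 3.65 against GABAergic interneuron-like nuclei, and most channels lie left of 0.

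Of 8 tested receptors for neurotrophins and growth factors, 1 was higher and 5 were lower than in GABAergic interneuron-like nuclei, beside 6.91% and 9.64% of all genes. Ntrk2, the receptor for brain-derived neurotrophic factor, fell to 128, 239 and 249.7 CPM in members of the urolithin A, high anxiety and low anxiety libraries, against 659, 883 and 721 CPM in GABAergic interneuron-like nuclei (log2 fold change -1.94 ± 0.19 SE, edgeR adjusted p = 2.29e-09). Ngfr, the low-affinity neurotrophin receptor of basal forebrain projection neurons, had no UMI in members. Erbb4, a neuregulin receptor, had 1229, 2313 and 1192 CPM in members and was 1.33 log2 units lower than in GABAergic interneuron-like nuclei (edgeR adjusted p = 8.67e-07), and 238 of its UMIs lay in the outlying high anxiety nucleus. Against medium spiny neuron-like nuclei, 3 of 6 were higher, beside 18.4% of all genes, among them Erbb4 at 0.77 (edgeR adjusted p = 0.0011).

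Of 14 tested neuropeptide genes, 8 were lower than in GABAergic interneuron-like nuclei, beside 9.64% of all genes. Only Nppc, which encodes C-type natriuretic peptide, was higher. Without the 2 outlying nuclei, 10 of the 14 were lower and 1 was higher. Vip, Tac3 and Pthlh, among the 8, and Npy and Sst are on the marker list that named the GABAergic interneuron-like clusters. Lower levels of these genes follow in part from the naming. Nppc had 147, 111 and 99.9 CPM in members of the urolithin A, high anxiety and low anxiety libraries, against 36.5, 29.7 and 40.0 CPM in GABAergic interneuron-like nuclei (log2 fold change 1.78 ± 0.24 SE, edgeR adjusted p = 7.01e-07). Its level in medium spiny neuron-like nuclei was 1.12, 1.46 and 0.695 CPM (log2 fold change 6.56 ± 0.36 SE, edgeR adjusted p = 1.63e-13). Every library of members lay above every library of the other classes. Npy was detected in 3 members (5.08%) and in 4.20% of oligodendrocyte-like nuclei. Of 12 tested mitochondrially encoded genes, 5 were lower than in GABAergic interneuron-like nuclei and none higher, with a median log2 fold change of -0.50. The shares over all genes were 9.64% lower and 6.91% higher. The median mitochondrial share of UMIs in members was 0.715% in the urolithin A library, 0.664% in the high anxiety library and 1.08% in the low anxiety library.

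Members also differed among themselves. Lhx6 was detected in 11 of 59 members (18.6%) and Zic4 in 17 (28.8%), genes that in mouse mark cholinergic interneurons of different embryonic origin. Both were detected in 4 members, Lhx6 alone in 7, Zic4 alone in 13 and neither in 35. Oligodendrocyte-like nuclei had no Lhx6 and Zic4 in 0.0976%. All 17 members with Zic4 had Lhx8 and Slc17a8, and of the 11 with Lhx6, 10 had Lhx8 and 8 had Slc17a8. Without the 2 outlying nuclei, 9 members had Lhx6, of which all 9 had Lhx8 and 7 had Slc17a8. Members with Zic4 and Lhx8 had a median of 13343 UMIs and the other members 9982, and the part of this depth in the split was not tested.

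Joint detection of Lhx8 and Isl1 went with depth. Lhx8 and Isl1 were both detected in 46 members and neither in 8, with a median of 11743.5 UMIs in the 46 and 2698 UMIs in all others. The part of depth in this overlap was not tested.

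**Figure D3:**
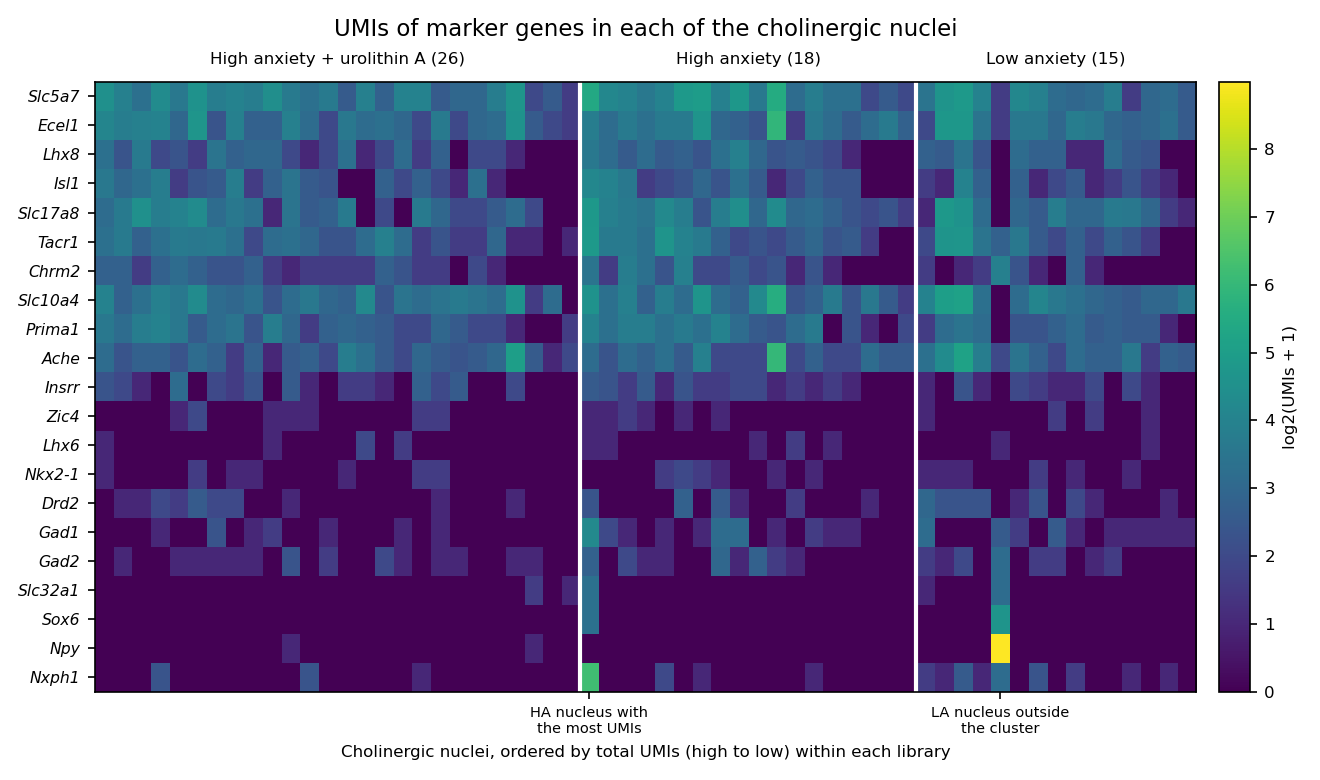
UMIs of identity genes in each of the 59 cholinergic nuclei, as log2(UMIs + 1), with nuclei grouped by library and ordered by depth, and the 2 outlying nuclei marked. Slc5a7 and Ecel1 are present in all 59 by the rule, and Lhx8 in 49.

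Between high anxiety and low anxiety, the 3 measured genes of acetylcholine supply and breakdown, other than the rule genes, lay within 2-fold. Among genes with at least 50 UMIs in 1 of the 2 sums, 23 of 972 were past 2-fold higher in the high anxiety library (2.37%) and 26 were past 2-fold lower (2.67%), and the median log2 ratio over all 972 was 0.11. With all members in, none of the measured genes of the acetylcholine (3), transcription factor (2), co-transmitter (1), cholinergic receptor (1) and channel (16) lists was among them. So few genes, beside shares of 2.37% and 2.67% over all genes, do not set these lists apart. Megf10, one of the leading genes above, was past 2-fold higher, with 259.8 CPM in the high anxiety library and 119 CPM in the low anxiety library (ratio 2.19, 95% interval 1.29 to 3.88). Chrm2 had 313 CPM in the high anxiety library and 194 CPM in the low anxiety library, where 14 of its 31 UMIs lay in the outlying nucleus. Without the 2 outlying nuclei, Chrm2 was past 2-fold higher in the high anxiety library. Ache had 652 CPM in the high anxiety library and 886 CPM in the low anxiety library (log2 ratio -0.44), and Lhx8 had 388 CPM in the high anxiety library and 399.5 CPM in the low anxiety library (log2 ratio -0.04). Intervals here cover counting error only, and with 1 library per group no test was made.

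Among the highest ratios were those of Igfbp7, an insulin-like growth factor binding protein, with 214 CPM in the high anxiety library and 49.9 CPM in the low anxiety library (ratio 4.29, 95% interval 2.03 to 10.5), and of Crebbp, a histone acetyltransferase, with 284 CPM in the high anxiety library and 93.6 CPM in the low anxiety library (ratio 3.04, 95% interval 1.72 to 5.72). The outlying high anxiety nucleus held 28 of the 52 high anxiety UMIs of Igfbp7, and without the 2 outlying nuclei its ratio was 2.29. The 10 oligodendrocyte markers summed to 652 CPM in members of the high anxiety library and 287 CPM in those of the low anxiety library. The part of these values in the ratios was not tested. Ralyl, an RNA-binding protein gene chosen after its values were seen, had 1625 CPM in the high anxiety library and 568 CPM in the low anxiety library (ratio 2.86, 95% interval 2.27 to 3.63), and the GABAergic interneuron-like nuclei of these libraries had 1595 CPM (high anxiety) and 1807 CPM (low anxiety).

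The lowest ratios were those of Npy, Sst and Penk. Npy had no UMI in members of the high anxiety library and 508 in those of the low anxiety library, Sst had none and 179, and all of those low anxiety UMIs lay in the outlying nucleus. Penk, which encodes enkephalin precursor, had 1 UMI in the high anxiety library and 112 in the low anxiety library, of which 53 lay in the outlying nucleus. The 5 other markers of D2 medium spiny neurons measured here summed to 115.5 CPM in the high anxiety library and 287 CPM in the low anxiety library, or 123 CPM (high anxiety) and 296 CPM (low anxiety) without the outlying nuclei, and their part in the Penk ratio was not tested. Without the 2 outlying nuclei, 15 of the 26 lower genes, Penk among them, and 18 of the 23 higher genes were still past 2-fold. Without the member that held most of each gene's UMIs, 11 of the 26 lower and 12 of the 23 higher genes were still past 2-fold. The direction turned for 2 of the higher genes, Nxph1 among them, and for 2 of the lower genes, Crhbp and Trpm3, all named after their values were seen. Over all 972 measured genes, the same omission gave 17 past 2-fold higher and 35 past 2-fold lower, so it also brought in genes that were within 2-fold before.

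Tubulin, chaperone and signalling genes were among the 15, named here after their values were seen. Tuba1a, an alpha-tubulin gene, had 684 CPM in the high anxiety library and 1679 CPM in the low anxiety library (ratio 0.408, 95% interval 0.334 to 0.496), and Tubb2a, a beta-tubulin gene, 408 CPM in the high anxiety library and 1080.0 CPM in the low anxiety library (ratio 0.378, 95% interval 0.292 to 0.487). Hspa8, a constitutive heat shock chaperone, had 289 CPM in the high anxiety library and 674 CPM in the low anxiety library (ratio 0.428, 95% interval 0.312 to 0.584), and Gnas, the stimulatory G-protein subunit, 210.3 CPM in the high anxiety library and 680.4 CPM in the low anxiety library (ratio 0.309, 95% interval 0.217 to 0.435). In GABAergic interneuron-like nuclei of the same 2 libraries, Hspa8 had 198 CPM (high anxiety) and 465 CPM (low anxiety), and Gnas 309.6 CPM (high anxiety) and 624 CPM (low anxiety), so these ratios were not confined to the cholinergic nuclei. Of the 23 higher genes, 14 had the same direction in GABAergic interneuron-like nuclei and 16 in medium spiny neuron-like nuclei, none past 2-fold. Of the 26 lower genes, 19 had the same direction in GABAergic interneuron-like nuclei and 16 in medium spiny neuron-like nuclei, and 4 and 0 were past 2-fold there.

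Between urolithin A and untreated high anxiety, 14 of 1144 genes were past 2-fold higher (1.22%) and 17 were past 2-fold lower (1.49%), with a median log2 ratio of 0.03. The 3 measured genes of acetylcholine supply and breakdown, other than the rule genes, again lay within 2-fold. Ache had 634 CPM in the urolithin A library and 652 CPM in the high anxiety library (log2 ratio -0.04), and Acly had 684 CPM in the urolithin A library and 796 CPM in the high anxiety library (log2 ratio -0.22). The comparison shares the high anxiety library with the one above.

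Unc5d, a netrin receptor, had 92 UMIs in the urolithin A members and 6 in the high anxiety members, or 356 CPM in the urolithin A library and 24.7 CPM in the high anxiety library (ratio 14.4, 95% interval 6.36 to 40.2), and 27.4% of its UMIs lay in 1 member. In GABAergic interneuron-like nuclei of the same 2 libraries Unc5d had 886 CPM (urolithin A) and 556 CPM (high anxiety). B2m, the light chain of class I histocompatibility molecules, had 205 CPM in the urolithin A library and 41.2 CPM in the high anxiety library (ratio 4.97, 95% interval 2.50 to 10.9). Apoe, a lipid carrier of glia, had 247 CPM in the urolithin A library and 78.3 CPM in the high anxiety library (ratio 3.16, 95% interval 1.87 to 5.58). A single urolithin A member held 60 of its 64 UMIs there, and without that member the direction turned, with 16.3 CPM (urolithin A) against 78.3 CPM (high anxiety). Of the 14 higher genes, 11, Apoe among them, were still past 2-fold without the 2 outlying nuclei. When each gene was recomputed without the member that held most of its UMIs, 9 of the 14 were still past 2-fold and 1 turned direction. In other classes, 13 had the same direction in GABAergic interneuron-like nuclei and 11 in medium spiny neuron-like nuclei, and none was past 2-fold in either class.

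The lowest ratios were those of Kirrel3 and Nxph1, adhesion genes whose high anxiety UMIs lay mostly in the outlying nucleus, and of Igfbp7, with 42.5 CPM in the urolithin A library and 214 CPM in the high anxiety library (ratio 0.198, 95% interval 0.0933 to 0.385). Without the 2 outlying nuclei the Igfbp7 ratio was 0.345, with 42.5 CPM (urolithin A) and 123 CPM (high anxiety). Pde4b, a cyclic AMP phosphodiesterase named after its values were seen, had 309 CPM in the urolithin A library and 672 CPM in the high anxiety library (ratio 0.460, 95% interval 0.348 to 0.605). Ppargc1a, a coactivator of mitochondrial biogenesis, had 135 CPM in the urolithin A library and 272 CPM in the high anxiety library, but 135 CPM (urolithin A) and 128 CPM (high anxiety) without the outlying nuclei. Of the 17 lower genes, 7 were still past 2-fold without them. Without the member that held most of each gene's UMIs, 6 were still past 2-fold and 4 turned direction, among them Nxph1, Kcnab1 and Ppargc1a. Among the others, Grm5 had 108 CPM in the urolithin A library and 293 CPM in the high anxiety library. Without the outlying nuclei the direction turned, with 108 CPM (urolithin A) and 30.8 CPM (high anxiety). None of the 8 measured mitochondrially encoded genes was past 2-fold in either comparison. Over all genes the shares were 1.22% higher and 1.49% lower for urolithin A over high anxiety. They were 2.37% higher and 2.67% lower for high anxiety over low anxiety. A count of 8 genes is too small to set them apart from all genes at such shares.

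**Figure D4:**
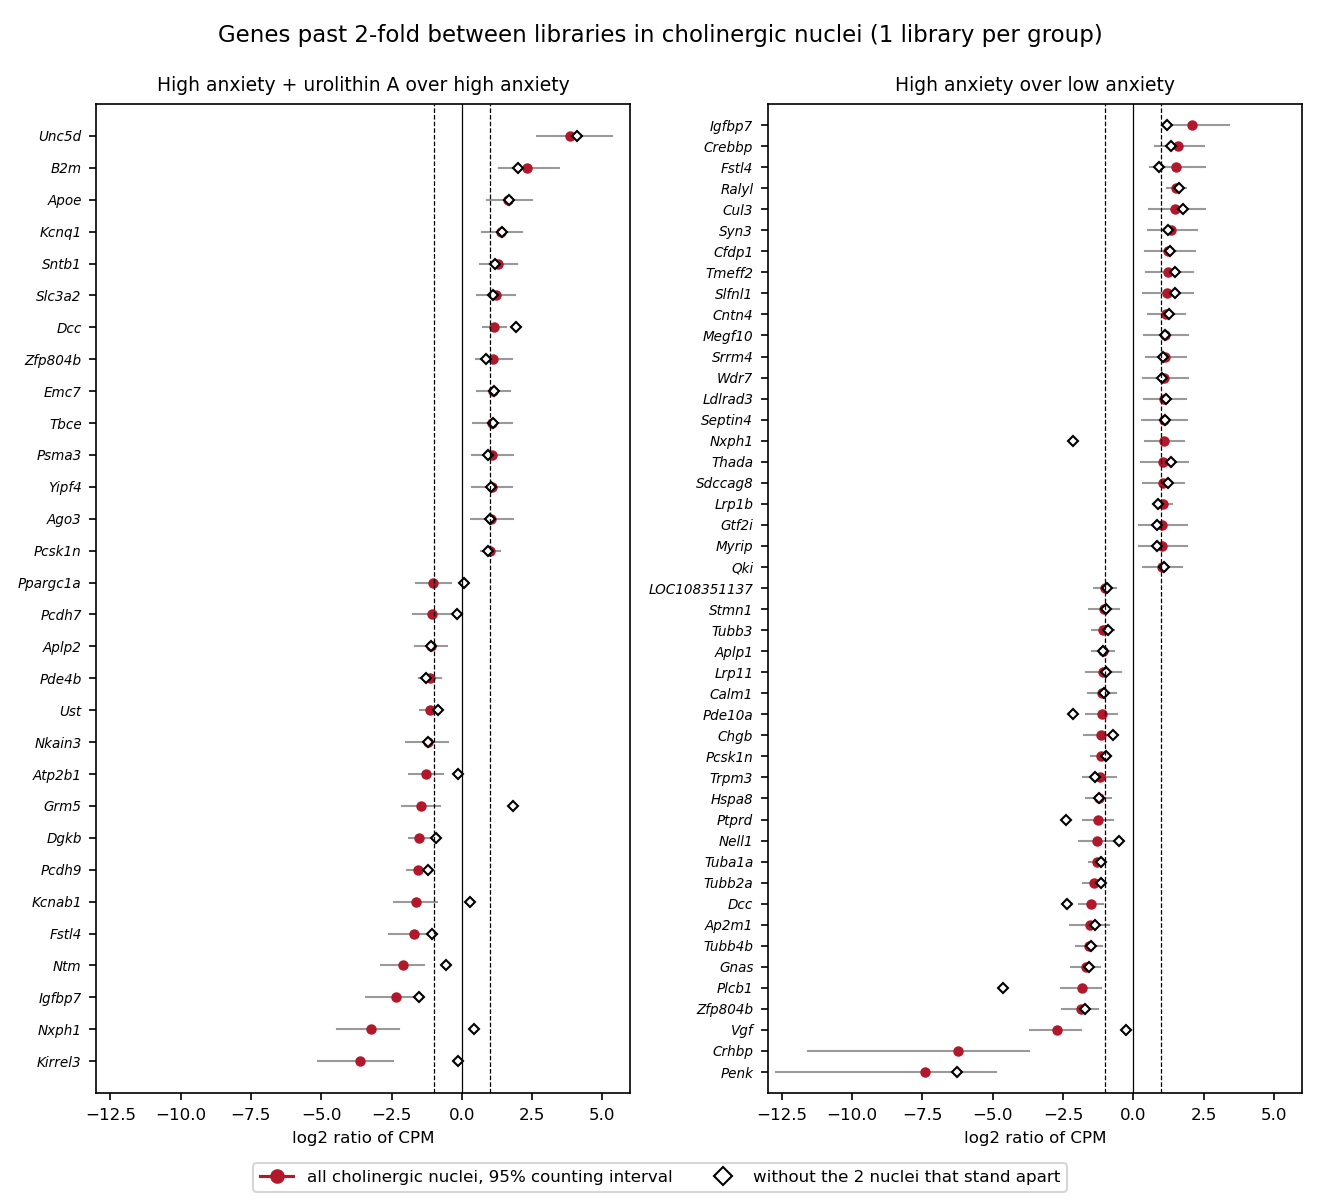
Ratios of CPM between libraries in cholinergic nuclei, on a log2 axis, for genes past 2-fold with a UMI in both libraries, with 95% counting intervals, and open diamonds without the 2 outlying nuclei. Unc5d lies furthest to the right for urolithin A over high anxiety, at 355.6 against 24.7 CPM.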

How the data were processed

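Single nuclei of rat nucleus accumbens were measured with the 10x Chromium 3' v3.1 kit, per the labels, in 1 library per group. The deposited matrices hold raw UMI counts per gene and barcode from Cell Ranger 7.1.0, per the file headers, with mRatBN7.2 as the build that the submitters' processing notes name. The intron setting and any removal of free RNA are not given in the sources used here.

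Of 11424 barcodes, 10806 that had 500 or more genes and a mitochondrial share of UMIs up to 5% were kept. Doublets were scored with Scrublet. The 312 nuclei with a high score stayed in the counts of kept nuclei but were left out of the clusters, and so of the comparison classes. Nuclei were clustered with scanpy 1.11.5 and leidenalg 0.10.2 (2000 variable genes, 30 components, 15 neighbours, resolution 1), which gave 22 clusters, and each cluster was called "like" the cell type whose marker list had the highest mean log2 fold over all other clusters, with at least 3 markers past 2-fold and no more markers of another class than its own among its 10 leading genes. A medium spiny neuron-like cluster of 887 nuclei and an oligodendrocyte-like cluster of 205 had no list marker among those 10. The comparison classes are therefore rebuilt names, not the authors' own. Counts were summed per library and class and tested with edgeR 4.0.16 (quasi-likelihood F test, TMM scaling, library as a block, Benjamini-Hochberg adjustment) on genes with at least 10 UMIs in at least 2 of 6 sums, 30 UMIs in all and a mean of at least 10 CPM. Slc5a7 and Ecel1 stayed in the fit and out of all counts of calls. Each SE given is the absolute log2 fold change divided by the square root of the F statistic. The libraries pair the classes because both sums of a pair come from the same pool of tissue. The test was checked on simulated data. DESeq2 1.42.0, other scalings, filters, member rules and the omission of each library or of the 2 outlying nuclei were alternatives.

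Between groups, a gene was measured with at least 50 UMIs in 1 of the 2 sums, ratios carry exact 95% intervals, and no test was made. The members and all gene lists were chosen with earlier results of these data known. Genes named are the list members furthest from 0 or named for their role, the 10 highest and 6 lowest genes past the threshold with the same side in all 3 libraries, and the 3 highest and lowest ratios between groups. Some genes that met this rule are not reported here. Promoter sequences came from RefSeq, build GRCr8.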

Additional observations from a re-analysis of the deposited data

How the results depend on the processing

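Against GABAergic interneuron-like nuclei, DESeq2 called 338 genes higher and 446 lower, against 665 and 927 with edgeR. Leaving out each library in turn gave 417 to 504 higher and 535 to 730 lower genes, with the lowest counts of 417 and 535 without the high anxiety library. Against medium spiny neuron-like nuclei the same omissions gave 1184 to 1478 higher and 1417 to 1600 lower genes. Without the replicate block, 572 and 777 genes were higher and lower than in GABAergic interneuron-like nuclei, and 1764 and 1820 against medium spiny neuron-like nuclei, so the block changed neither count by over 1.5 times. Of 756 values that the alternatives gave for 51 named genes against GABAergic interneuron-like nuclei, 728 kept direction and side of the threshold, 21 lost the call, 7 gained it and none reversed. Of 693 values for 51 named genes against medium spiny neuron-like nuclei, 684 kept both, 9 lost the call and none reversed. Part of the kept values was fixed in advance. The omission of members with a high doublet score removed no nucleus, so it repeated the main values in both comparisons. A depth floor of 741 UMIs removed no GABAergic interneuron-like nucleus, so it repeated the main values there. The calls lost under DESeq2 were Chrm5, Gfra2, Slc44a5 and Vip against GABAergic interneuron-like nuclei, and Chrm4 and Sox6 against medium spiny neuron-like nuclei; the cause was not tested.

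Between groups, a minimum of 100 UMIs left 339 genes for high anxiety over low anxiety, with 2 past 2-fold higher and 13 lower, and 397 for urolithin A over high anxiety, with 2 higher and 4 lower, as fewer genes were measured. Without the 2 outlying nuclei, 6 of 1049 genes were past 2-fold lower in the urolithin A library, and 7 of 1144 without the member that held most UMIs of each gene. The alternative of 5 UMIs with 3 of the 4 rule genes, and that of Chat, Slc5a7 and Slc18a3 alone, were not run because Chat and Slc18a3 are not analysed here. The rule of 5 UMIs with both genes, the rule of Slc5a7 with Lhx8, the narrower GABAergic class, the omission of the 2 nuclei and that of the member with most UMIs of each gene were chosen after seeing the data. Depth limits the group ratios, since members of the urolithin A, high anxiety and low anxiety libraries held 258689, 242501 and 160195 UMIs in all.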
